A study of Mus musculus with 8 samples.

Results

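Male spines carrying the Pax1-Enh knockout (KO) were set against male wild-type (WT) spines at E18.5, shortly before birth. The members are 4 of the 8 libraries of the series, 2 labelled male KO and 2 labelled male WT, and were taken by sex and genotype from the sample titles. The other 4 libraries are female KO and female WT spines of the same age, also 2 each, and enter here through the shared estimate of spread and the test of the difference between sexes. Each library holds polyadenylated RNA of a whole spine, extracted from frozen tissue and made into libraries with a stranded kit. The sources used here give neither the strain, nor the extent of the deleted stretch, nor whether the animals were littermates. WT and KO without a sex mean the male libraries below. Replicates are not said to come from separate embryos, so every p-value measures the spread between these libraries.

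Pax1 encodes a paired-box transcription factor of the sclerotome, the part of the somite that forms vertebrae and intervertebral discs. The notochord secretes Sonic hedgehog, which induces Pax1 and its paralog Pax9 in the sclerotome, and both factors drive its cells towards cartilage. Enhancers are stretches of DNA that raise transcription of a gene from a distance, and the deletion here is named for such an element of Pax1, in a region linked by the series title to adolescent idiopathic scoliosis. A whole late-fetal spine contains cartilage, bone, discs, muscle, spinal cord, ganglia, marrow, vessels and attached fat. Bulk values cannot tell fewer cells of a type from less RNA per cell, and this holds for every difference below.

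The male libraries held 48021848 and 47673931 counts in WT and 67575728 and 59722279 counts in KO, so both KO libraries were deeper and depth cannot be told apart from genotype. Levels are counts per 1000000 (CPM) of a library size scaled by the trimmed mean of M-values, and 3 counts correspond to 0.0392 to 0.0740 CPM. Mitochondrially encoded genes took 17.5% and 19.6% of the counts in WT and 4.34% and 15.01% in KO, with KO 1 far below the others. The Y-linked genes summed to 275 and 395 CPM in WT against 131 and 369.9 CPM in KO, lowest in KO 1, and Xist, made from the inactive X of females, was between 0.271 and 1.66 CPM, against 294.9 to 721 CPM in the female libraries. Between female KO and female WT the 4 Y-linked genes had a median log2 fold change of 3.94. Of these 4 genes 3 had an unadjusted p under 0.05 for the difference between sexes, and the reason was not tested. The cartilage collagen Col2a1, at 3526 CPM or more, and Pax1 were present in every male library, as in a spine. The leading difference between libraries, the root mean square log2 ratio of the 500 genes that differ most, was 2.31 between the WT pair and 2.42 between the KO pair. Across genotypes it was 2.55 to 2.88, only slightly larger. On log2 ratios of CPM plus 0.5, 622 of the tested genes (3.44%) differed at least 2-fold within WT and 2070 (11.4%) within KO, against 966 (5.34%) between the means of 2 libraries, which vary less than single libraries.

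Neighbouring tissue differed between single libraries, and these markers touch several results below. WT 1 was highest in fat transcripts and in the lung list, with a summed adipocyte list at 6163 and 1357 CPM in WT against 721 and 1255 CPM in KO. WT 2 held adrenal transcripts: Cyp11b1, the enzyme of the last step of corticosterone synthesis, was at 0.0493 CPM in WT 1 and 97.7 CPM in WT 2, and the adrenal and kidney list summed to 8.16 and 349.6 CPM in WT against 8.05 and 10.03 CPM in KO. KO 2 was low in liver transcripts, whose list summed to 1418 and 1095 CPM in WT against 1518 and 158 CPM in KO. The muscle list summed to 46045 and 22317 CPM in WT against 44423 and 56689 CPM in KO, lowest in WT 2, and the part of these shifts in other results was not tested, except where a value without that library is given.

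**Figure D1:**
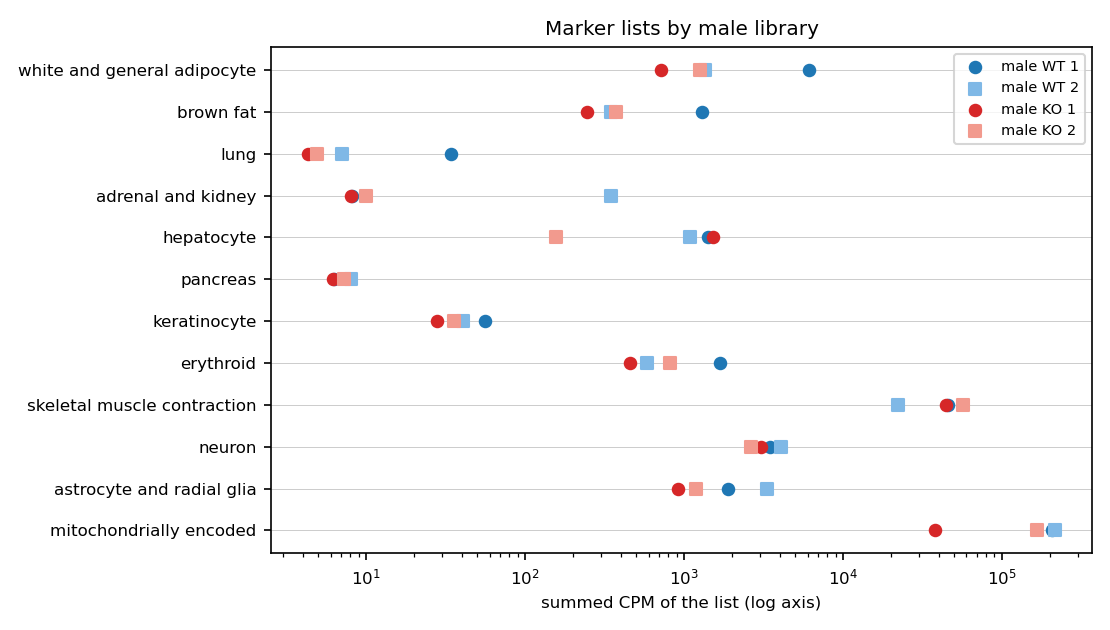
Summed CPM (log axis) of 12 marker lists, one symbol per male library, blue for WT and red for KO. WT 1 stands apart for fat and lung (6163 CPM for adipocyte genes), WT 2 for adrenal (349.6 CPM) and low muscle (22317 CPM), KO 1 for low mitochondrial transcripts and KO 2 for low hepatocyte transcripts (158 CPM).

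The first question was whether Pax1 itself differed in males. Pax1 (chromosome 2, 147361930 to 147375049, mm10) was measured at 20.4 and 17.0 CPM in WT against 28.3 and 18.9 CPM in KO. The groups overlapped, since KO 2 lay between the WT libraries, and the log2 fold change was 0.34 (SE 0.31), with an edgeR adjusted p of 0.611. The value was 0.02 without KO 1 and 0.60 without KO 2. The deleted sequence is not a gene of the table, so the deletion itself could not be checked from these counts. Of the 7 other genes tested within 1 Mb, Nkx2-2, a homeobox factor of ventral neural progenitors, had the smallest p, with 2.66 and 4.08 CPM in WT against 2.27 and 1.24 CPM in KO. Its log2 fold change was -0.93 (SE 0.44) with an edgeR adjusted p of 0.355, and its KO libraries lay below both WT libraries. AI646519, a transcript that overlaps the start of Pax1, was at 3.01 and 2.81 CPM in WT against 0.902 and 2.14 CPM in KO, a log2 fold change of -0.95 (SE 0.54) with an edgeR adjusted p of 0.417. Its groups did not overlap, but reads of overlapping genes cannot be told apart here without the strand setting of the counting. Foxa2, which acts in notochord and floor plate, had 0.32 (SE 0.31) and overlapped. On chromosome 2 as a whole 208 of 1372 tested genes (15.2%) had an unadjusted p under 0.05, within the range of 12.0% to 17.4% over the other autosomes and the X.

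Over all 18104 tested genes, edgeR's quasi-likelihood test called 0 genes at an adjusted p under 0.05 (smallest 0.179). At an unadjusted p under 0.05 there were 2684 genes (14.8%), 1364 higher in KO (7.53%) and 1320 lower (7.29%). With the mitochondrial genes left out of the library sizes, 61.6% of such genes were higher, against 50.8%. DESeq2 called 487 genes (2.69%), 340 higher (1.88%) and 147 lower (0.812%), and limma voom called 0. The KO libraries lay wholly above the WT libraries for 3571 genes (19.7%) and wholly below for 4333 (23.9%), 43.7% in all. A positive log2 fold change was found for 8223 genes (45.4%), one of at least 1 for 756 (4.18%) and one of at most -1 for 1135 (6.27%). The estimated biological coefficient of variation was 27.8% and the median SE of a log2 fold change 0.32, so the design resolves large differences only. The count at an unadjusted p was 5176 without KO 2 and 1233 without WT 2.

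Of the 20 genes higher in male KO with the smallest p, Deptor and Fbxo32 came first. Deptor, which binds and inhibits the growth kinase mTOR (chromosome 15, 55112317 to 55259273), was at 5.13 and 4.13 CPM in WT against 20.9 and 22.1 CPM in KO. Both KO libraries stood more than 4-fold above both WT libraries, and the log2 fold change was 2.21 (SE 0.28), with an adjusted p of 0.179 in edgeR and 1.75e-08 in DESeq2. Fbxo32, the muscle ubiquitin ligase atrogin-1 (chromosome 15, 58175879 to 58214892), was at 11.2 and 11.3 CPM in WT against 34.6 and 55.8 CPM in KO, a log2 fold change of 2.00 (SE 0.27). Foxo3, the forkhead factor that turns on Fbxo32 in atrophying muscle (chromosome 10, 42181845 to 42276695), was at 9.42 and 9.78 CPM in WT against 30.5 and 24.2 CPM in KO, a log2 fold change of 1.51 (SE 0.23). The WT pair agreed closely for both genes and the groups were far apart. Klf11, a Krüppel-like repressor linked to TGF-beta signalling, was at 14.4 and 12.4 CPM in WT against 33.8 and 31.6 CPM in KO.

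Several of the other genes act in muscle fibres. Musk, the receptor kinase that organises the nerve-muscle synapse (chromosome 4, 58285729 to 58377848), was at 3.53 and 2.58 CPM in WT against 12.3 and 13.4 CPM in KO, a log2 fold change of 2.07 (SE 0.30). Igfn1, an immunoglobulin-fibronectin protein of skeletal muscle, was at 2.56 and 1.85 CPM in WT against 19.6 and 13.4 CPM in KO, a log2 fold change of 2.90 (SE 0.47). Abra, an actin-binding protein of striated muscle, was at 9.96 and 7.96 CPM in WT against 27.7 and 46.9 CPM in KO. Ppp1r12b, a myosin phosphatase subunit of striated muscle, was at 11.6 and 9.53 CPM in WT against 41.1 and 31.6 CPM in KO, and the mitochondrial carrier Ucp3 of skeletal muscle was at 2.17 and 1.15 CPM in WT against 9.98 and 7.91 CPM in KO. All of these genes stood at least 2-fold higher in each KO library than in either WT library. Among genes with the largest rise, the kinase gene Alpk2 was at 4.93 and 1.52 CPM in WT against 21.7 and 15.9 CPM in KO, and its log2 fold change of 2.54 was 3.63 without WT 1. Klhl38, a kelch protein of muscle, was at 6.88 and 2.95 CPM in WT against 11.5 and 32.2 CPM in KO, and its log2 fold change of 2.15 was 1.23 without KO 2. Slc10a6, a transporter of sulfated steroids, was at 1.504 and 0.530 CPM in WT against 3.50 and 9.68 CPM in KO, with a log2 fold change of 2.69 that was 1.79 without KO 2.

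A further set of these genes acts in RNA silencing, immunity and gene control. Ago2, the slicing Argonaute protein of RNA interference (chromosome 15, 73101625 to 73184947), was at 30.5 and 34.0 CPM in WT against 123 and 84.1 CPM in KO, a log2 fold change of 1.69 (SE 0.26). Il10, the anti-inflammatory cytokine, was at 0.247 and 0.185 CPM in WT against 2.05 and 5.52 CPM in KO, a log2 fold change of 4.12 (SE 0.67) from a low WT level, and 3.24 without KO 2. Il6ra, the interleukin-6 receptor chain, was at 2.88 and 1.85 CPM in WT against 9.03 and 8.75 CPM in KO. The protease inhibitor Serpina3g was at 4.07 and 4.64 CPM in WT against 13.1 and 16.3 CPM in KO, and Ms4a4a, a macrophage surface protein, was at 2.14 and 1.94 CPM in WT against 7.75 and 10.7 CPM in KO. Arid5b, a chromatin-binding factor of cartilage and fat cell development, was at 7.30 and 5.67 CPM in WT against 20.8 and 19.3 CPM in KO, and Elk4, a partner of serum response factor, was at 3.80 and 4.36 CPM in WT against 11.5 and 10.98 CPM in KO. Groups did not overlap for any of these genes, but non-overlap and small p were conditions of their choice. Of the remaining genes, Syne3 links the nucleus to the cytoskeleton (1.94), Ston1 acts in endocytosis (1.36), Clcn5 is an endosomal chloride exchanger (1.74) and Ror1 is a Wnt5a receptor (1.83), all as log2 fold changes. Adjusted p in edgeR ran from 0.179 to 0.184 over the 20 genes with the smallest p that were higher. DESeq2, run on the same counts, called all 20.

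**Figure D2:**
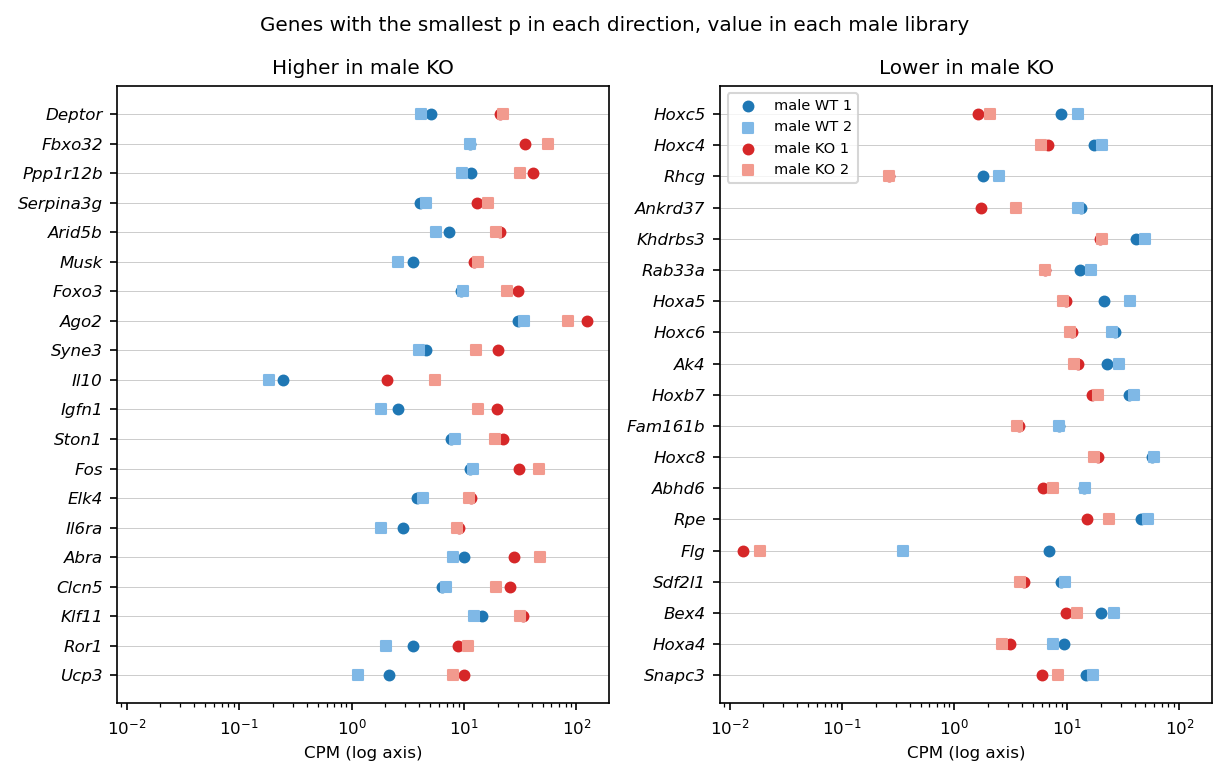
CPM (log axis) of the 20 genes with the smallest p in each direction, with 1 symbol per male library, blue for WT and red for KO. For Deptor the WT libraries sit at 5.13 and 4.13 CPM and the KO libraries at 20.9 and 22.1 CPM; the panels show only genes chosen for not overlapping, and 1 of the 20 lower genes is not drawn.

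Among the 20 lower genes with the smallest p, 7 were Hox genes, described below, and Rhcg and Ankrd37 had the smallest p of the others. Rhcg, an ammonium transporter, was at 1.80 and 2.47 CPM in WT against 0.261 and 0.260 CPM in KO, a log2 fold change of -3.02 (SE 0.44) with adjusted p of 0.179 in edgeR and 7.48e-06 in DESeq2. Ankrd37, a hypoxia-inducible ankyrin protein, was at 13.4 and 12.6 CPM in WT against 1.72 and 3.53 CPM in KO, a log2 fold change of -2.31 (SE 0.38) that was -2.91 without KO 2. Ak4, a mitochondrial adenylate kinase that is also hypoxia-inducible, was at 22.6 and 28.9 CPM in WT against 12.5 and 11.6 CPM in KO. Rpe, an epimerase of the pentose phosphate pathway, was at 45.6 and 52.8 CPM in WT against 15.1 and 23.6 CPM in KO, and Abhd6, a lipase of endocannabinoid breakdown, was at 14.1 and 14.6 CPM in WT against 6.08 and 7.49 CPM in KO. Khdrbs3, an RNA-binding splicing factor of neurons and muscle, was at 41.1 and 49.6 CPM in WT against 19.6 and 20.5 CPM in KO. The WT pair and the KO pair each agreed closely for Khdrbs3, and the pairs were about 2-fold apart. Sdf2l1, a chaperone partner of the endoplasmic reticulum, was at 8.90 and 9.53 CPM in WT against 4.13 and 3.84 CPM in KO. Other log2 fold changes were -1.20 for the vesicle GTPase Rab33a, -1.07 for Bex4, -1.16 for Snapc3, a subunit of the complex that transcribes small nuclear RNA genes, and -1.22 for Fam161b. Adjusted p in edgeR ran from 0.179 to 0.221 over these 20, and DESeq2 called all 20. Both tools used the same counts, and small p and non-overlap were conditions of the choice here too.

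Hox genes showed an ordered pattern along the body axis. They lie in 4 clusters and are numbered by paralog group, low numbers being active from the neck down and high numbers towards the tail, and they set the identity of vertebrae. All 15 genes of paralog groups 1 to 5 were lower in both male KO libraries than in both male WT libraries, against 23.9% of all tested genes. Of these 15 genes 13 had an unadjusted p under 0.05 and 5 were called by DESeq2. Their median log2 fold change was -0.95, against -0.06 over all tested genes, and it stayed between -1.08 and -0.86 when any male library was left out, with 7 genes at an unadjusted p under 0.05 without WT 2. Hoxc5 (chromosome 15, 103014008 to 103017429), the gene with the smallest p of the whole male comparison, was at 8.88 and 12.6 CPM in WT against 1.63 and 2.08 CPM in KO. Its log2 fold change was -2.54 (SE 0.29), with an adjusted p of 0.179 in edgeR and 8.38e-10 in DESeq2. Its neighbour Hoxc4 was at 17.5 and 20.6 CPM in WT against 6.85 and 5.93 CPM in KO, and Hoxa5, which shapes the neck to chest transition, was at 21.3 and 36.2 CPM in WT against 9.88 and 9.16 CPM in KO. Hoxa4 was at 9.37 and 7.45 CPM in WT against 3.14 and 2.67 CPM in KO, and Hoxb3, active from the hindbrain down, was at 34.2 and 39.9 CPM in WT against 19.4 and 18.3 CPM in KO. The smallest difference of the group was that of Hoxa3, at 7.25 and 5.12 CPM in WT against 4.74 and 3.08 CPM in KO, a log2 fold change of -0.66 (SE 0.32).

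Paralog groups 6 to 9, which pattern the trunk with ribs, were split. Of 12 genes 6 were lower at an unadjusted p under 0.05, 0 were higher, and the median was -0.67. Hoxc8 was at 57.1 and 58.9 CPM in WT against 18.9 and 17.6 CPM in KO, a log2 fold change of -1.67 (SE 0.34), and Hoxc6 was at 26.6 and 25.1 CPM in WT against 11.2 and 10.7 CPM in KO, a log2 fold change of -1.24 (SE 0.24). Hoxb6, Hoxb7, Hoxb8 and Hoxb9 had log2 fold changes between -1.01 and -1.09, so every tested gene of the Hoxb cluster in this range was lower, as was each of Hoxb1 to Hoxb5. By contrast Hoxd8 and Hoxd9 had positive values, 0.31 (SE 0.25) and 0.61 (SE 0.31), that did not reach an unadjusted p under 0.05. Hoxd9 was at 10.6 and 10.4 CPM in WT against 15.99 and 16.2 CPM in KO, so its groups did not overlap either, in the opposite direction to the Hoxb genes.

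Paralog groups 10 to 13, which pattern loin, sacrum and tail, lay on the other side. All 11 tested genes had positive log2 fold changes, 6 at an unadjusted p under 0.05 and 2 called by DESeq2 as higher. The groups did not overlap for 10 of them, against 19.7% of all tested genes that lay wholly higher in KO. The exception was Hoxd10 at 19.7 and 24.4 CPM in WT against 18.7 and 28.6 CPM in KO, whose value of 0.10 was -0.24 without KO 2. Hoxb13, the most tailward Hoxb gene, had 1 count in each male WT library and 111 and 42 counts in male KO. Hoxc13 had 0 and 77 counts in WT and 394 and 281 in KO, and Hoxd13 had 0 and 6 in WT and 27 and 22 in KO. Within WT these genes thus differed between libraries as well, WT 2 holding most of the WT counts of Hoxc13. Hoxc11 was at 0.567 and 0.784 CPM in WT against 3.18 and 1.75 CPM in KO, a log2 fold change of 1.86 (SE 0.55), and Hoxa11, which patterns the sacrum, was at 1.18 and 2.26 CPM in WT against 4.82 and 4.09 CPM in KO. At group 10 the values were small, with 15.2 and 19.6 CPM in WT against 22.9 and 24.8 CPM in KO for Hoxa10. The list median was 1.81, and 1.19 without WT 1, with 2 genes at an unadjusted p under 0.05, and 1.24 without KO 1, with 1. The labels do not say at which vertebra the dissected spine began or ended, and this cannot be told apart from genotype here.

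**Figure D3:**
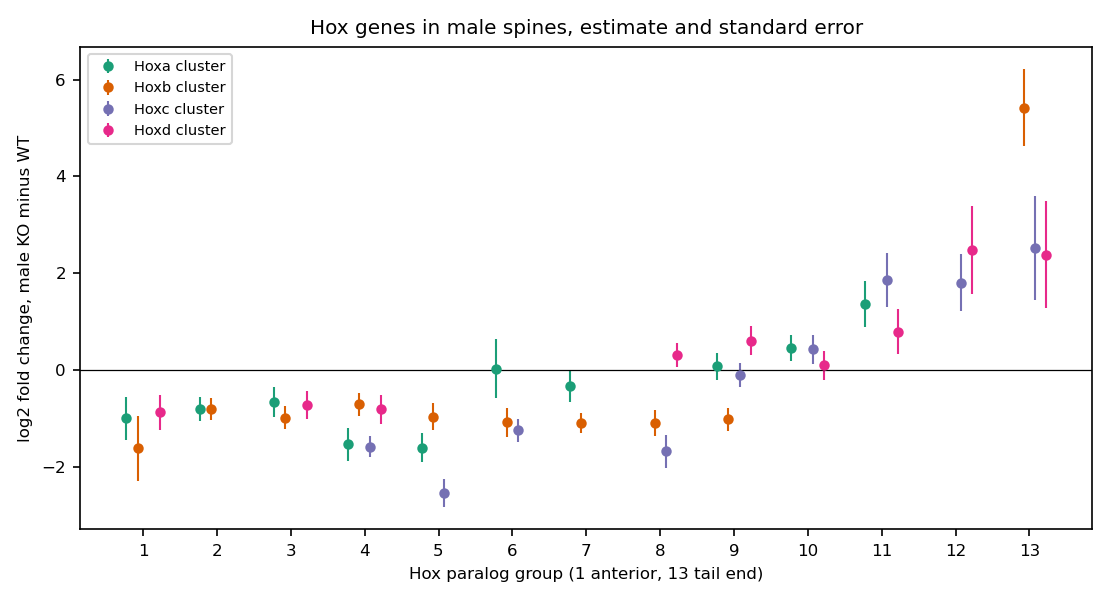
Log2 fold change, male KO minus male WT, with standard error, for 38 tested Hox genes by paralog group (horizontal axis, anterior to tail end), coloured by cluster. All 15 values of groups 1 to 5 lie below 0 and all 11 of groups 10 to 13 lie above it, and the value of 5.42 for Hoxb13 rests on 1 count in each WT library.

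The sclerotome and disc lists had small medians, though single members differed more. The sclerotome and somite list had a median log2 fold change of 0.02, with values from -0.62 to 1.54. At an unadjusted p under 0.05, 2 of 15 genes were higher, against 7.53% of all tested genes, and 0 lower. Pax9, which acts alongside Pax1, was at 2.79 and 2.44 CPM in WT against 5.03 and 3.84 CPM in KO, a log2 fold change of 0.76 (SE 0.28) at an unadjusted p of 0.0248 and an edgeR adjusted p of 0.292. Pax7, a factor of muscle stem cells and dorsal neural tube, was at 2.54 and 1.34 CPM in WT against 7.54 and 3.71 CPM in KO, and its log2 fold change of 1.54 was 0.94 without KO 1. DESeq2 called Pax7 as higher (adjusted p = 0.0205). Of 9 tested notochord and nucleus pulposus genes 0 reached an unadjusted p under 0.05, with a median of -0.21. The notochord factor T (brachyury) was at 14.1 and 22.9 CPM in WT against 12.1 and 15.1 CPM in KO, and Noto, restricted to the notochord, was at 0 counts in every male library. In the annulus fibrosus and tendon list 2 of 12 were higher at an unadjusted p under 0.05 and 0 lower. These were Thbs4, a thrombospondin of tendon (log2 fold change 0.89, SE 0.35), and Col12a1, a fibril-associated collagen (log2 fold change 0.74, SE 0.31), neither called by DESeq2. Without WT 2 there were 0 higher, and without KO 2 the median of 0.13 was -0.23, with 2 higher and 3 lower.

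Cartilage matrix genes were higher on balance, with a median log2 fold change of 0.68 and 17 of 20 positive. Only 4 of the 20 reached an unadjusted p under 0.05, all higher, and DESeq2 called Chad and Comp. Chad, a leucine-rich repeat protein that binds chondrocytes, was at 158 and 102 CPM in WT against 392 and 214 CPM in KO, a log2 fold change of 1.22 (SE 0.36). Comp, which joins collagen fibrils, was at 171 and 130.2 CPM in WT against 618 and 252 CPM in KO, and Acan, the large proteoglycan aggrecan, was at 386 and 247 CPM in WT against 1261 and 516 CPM in KO. Col11a2, a minor fibril collagen of cartilage, was at 632 and 333 CPM in WT against 2155 and 830.1 CPM in KO. The major cartilage collagen Col2a1 was at 6926 and 3526 CPM in WT against 22470.4 and 8603 CPM in KO, a log2 fold change of 1.57 (SE 0.73) with an edgeR adjusted p of 0.353. KO 1 held the highest value of each of these genes and KO 2 lay closer to WT. Without KO 1 the values were 0.75 for Comp, 0.71 for Acan, 0.72 for Col2a1 and 0.42 for the list median, with 0 genes at an unadjusted p under 0.05. There were also 0 such genes without WT 2, and 10 without KO 2. With the mitochondrial share as a covariate, which was lowest in KO 1, there were again 0, and the values were 0.29 for Col2a1, 0.21 for Acan, 0.24 for Col11a2 and 0.26 for the list median. The regulators of these genes differed less, with a median of 0.19, and -0.09 without KO 1. Sox9, the master factor of cartilage, had 47.6 and 54.7 CPM in WT against 64.5 and 50.2 CPM in KO, and Nfatc2, a calcineurin-dependent factor, had 14.9 and 14.1 CPM in WT against 34.0 and 24.3 CPM in KO, called by DESeq2 (adjusted p = 0.0184).

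Bone cells gave a mixed picture. Of 15 osteoblast genes 3 were higher at an unadjusted p under 0.05 and 0 lower, with a median log2 fold change of 0.17. Without WT 2 and without KO 1 the osteoblast list had 0 genes at that threshold, and without WT 1 its median was 0.42. Col1a2, a chain of the main bone and tendon collagen, was at 1509 and 671 CPM in WT against 5378 and 3101 CPM in KO, a log2 fold change of 1.96 (SE 0.61) with a DESeq2 adjusted p of 0.00347, and the log2 fold change was 2.66 without WT 1. Col1a1, its partner chain, was at 4019 and 1566 CPM in WT against 8695 and 4307 CPM in KO and did not reach an unadjusted p under 0.05 in edgeR. Sparc, a calcium-binding matrix protein, was at 1217 and 803 CPM in WT against 2510.0 and 1611 CPM in KO. Among 8 osteocyte genes Mepe, a phosphoprotein of mineralising matrix, was higher at an unadjusted p under 0.05 (log2 fold change 1.02, SE 0.30), while Dmp1 had 0.25 (SE 0.23). In the growth plate hypertrophy list 1 of 8 was higher and 1 lower at that threshold, Bmp6 at 0.63 (SE 0.24) and Vegfa, the vessel growth factor, at 59.0 and 56.8 CPM in WT against 33.5 and 30.8 CPM in KO. Col10a1, the collagen that defines hypertrophic chondrocytes, had 0.31 (SE 0.43).

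Genes of osteoclasts, the marrow-derived cells that resorb bone and calcified cartilage, were higher as a list. Of 15 genes 8 were higher at an unadjusted p under 0.05, against 7.53% of all tested genes, and 0 were lower. DESeq2 called 5, and the median was 0.78. Nfatc1, the master factor of their differentiation, was at 33.0 and 26.5 CPM in WT against 78.8 and 44.4 CPM in KO, and Dcstamp, which drives cell fusion, was at 7.37 and 6.73 CPM in WT against 12.99 and 13.7 CPM in KO. Mmp9, a gelatinase of osteoclasts, was at 294 and 196 CPM in WT against 893 and 448 CPM in KO, a log2 fold change of 1.45 (SE 0.39), and Itgb3, the integrin chain by which they attach, was at 35.03 and 21.8 CPM in WT against 81.8 and 50.7 CPM in KO. Ctsk, the collagen-degrading cathepsin, was at 451 and 326 CPM in WT against 642 and 724 CPM in KO. Both KO libraries lay above both WT libraries for these 5 genes, KO 1 being the higher for all but Dcstamp and Ctsk. In the whole list the groups separated in that way for 11 of 15 genes, against 19.7% of all tested genes. Matrix proteases and their inhibitors had 7 of 16 higher at an unadjusted p under 0.05 and 0 lower, but DESeq2 called 0. The collagenase Mmp13 was at 365 and 459.8 CPM in WT against 586 and 1195 CPM in KO, and the aggrecanase Adamts4 was at 4.24 and 3.28 CPM in WT against 11.9 and 4.85 CPM in KO. The Adamts4 value of 1.16 was 0.37 without KO 1, and the Mmp13 value of 1.11 was 0.51 without KO 2. Without WT 2 the counts at an unadjusted p under 0.05 were 4 for osteoclast genes and 2 for the proteases, and without KO 1 they were 5 and 4.

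Signalling lists gave unequal counts. Hedgehog signalling, in which ligand binding to Patched frees Smoothened to activate Gli factors, had 6 of 14 genes higher at an unadjusted p under 0.05 and 0 lower, with a median of 0.57. Ptch1, receptor and direct target of the pathway, was at 12.97 and 19.5 CPM in WT against 60.2 and 26.9 CPM in KO, a log2 fold change of 1.42 (SE 0.40) that was 0.73 without KO 1. The co-receptor Gas1 was at 80.3 and 64.1 CPM in WT against 109 and 140.2 CPM in KO. Gli3, mainly a repressor, was at 16.8 and 15.3 CPM in WT against 30.4 and 32.2 CPM in KO, and Gli1, the target most used as a readout, was at 16.2 and 16.7 CPM in WT against 27.3 and 17.9 CPM in KO. The ligand Shh was at 0.962 and 1.43 CPM in WT against 1.08 and 0.984 CPM in KO, with overlapping groups. Without KO 1 the list median was 0.26, with 2 genes at an unadjusted p under 0.05.

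TGF-beta genes had 7 of 15 higher at an unadjusted p under 0.05 and 0 lower, with a median of 0.61, and DESeq2 called Tgfbi and Tgfbr3. Tgfbi, an induced matrix protein, was at 83.8 and 64.9 CPM in WT against 178 and 118 CPM in KO, and Tgfbr3, the co-receptor betaglycan, was at 52.2 and 33.5 CPM in WT against 80.8 and 89.6 CPM in KO. The matricellular factor Ccn2 was at 215 and 196 CPM in WT against 293 and 626 CPM in KO, a value of 1.16 that was 0.52 without KO 2. Without WT 2 only 2 genes of the list reached an unadjusted p under 0.05. The BMP list had a median of 0.10 and 3 of 18 higher, and 1 without WT 2, led by the type II receptor Bmpr2 at 8.26 and 12.7 CPM in WT against 35.6 and 21.4 CPM in KO (DESeq2 adjusted p = 0.014). The Wnt list had a median of 0.14, 3 of 17 higher and DESeq2 calls for 0. Without KO 1 the Wnt median was -0.12, with 1 higher and 1 lower, and without WT 2 there were 0 higher. In the Notch list 2 of 14 were higher and 3 lower at an unadjusted p under 0.05, and 7 were higher without KO 2. Without KO 1 there were 0 higher and the median of 0.45 was 0.06, and without WT 2 there were 0 in either direction. The lower ones were the target genes Hey2 (log2 fold change -0.82, SE 0.26), Nrarp (log2 fold change -0.56, SE 0.23) and Hey1 (log2 fold change -0.47, SE 0.20), and the receptor Notch3 was among the higher ones (log2 fold change 0.98, SE 0.39, and 0.26 without KO 1).

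FoxO, atrophy and glucocorticoid response genes lay mostly on the higher side. FoxO factors are held in the cytoplasm by insulin and growth factor signalling through Akt, enter the nucleus when it drops, and induce ubiquitin ligases and growth inhibitors. Of 17 genes 10 were higher at an unadjusted p under 0.05, 0 were lower, and DESeq2 called 8, all higher, with a median of 0.92. Beside Foxo3 and Fbxo32, the second atrophy ligase Trim63 (MuRF1) was at 12.8 and 7.06 CPM in WT against 22.6 and 54.5 CPM in KO, a log2 fold change of 1.96 (SE 0.44). Irs2, the insulin receptor substrate induced by FoxO, was at 5.65 and 6.50 CPM in WT against 25.9 and 15.2 CPM in KO, a log2 fold change of 1.76 (SE 0.31). The growth inhibitors Sesn1 and Cdkn1a (p21) were at 59.8 and 48.4 CPM in WT against 81.0 and 163 CPM in KO, and at 118 and 99.3 CPM in WT against 192 and 179 CPM in KO, respectively. Glucocorticoid targets were Fkbp5 at 47.8 and 46.9 CPM in WT against 74.6 and 126 CPM in KO and Zbtb16 at 11.02 and 5.67 CPM in WT against 19.6 and 34.6 CPM in KO. For Trim63, Fkbp5, Sesn1 and Zbtb16 KO 2 was well above KO 1, while Irs2 was higher in KO 1. Without KO 2 Trim63 had 1.19, Sesn1 had 0.58 and the list median was 0.58. Adrenal transcripts were high in WT 2 alone, and their part in these values was not tested. In the list of mTOR complexes and inhibitors Deptor alone of 11 genes reached an unadjusted p under 0.05, against 4 without KO 2, and the median of 0.26 was -0.09 without KO 1.

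Muscle genes were mostly higher in male KO, with WT 2 below the other libraries, although the summed list overlapped between groups as given above. Of 30 contraction genes 28 had positive values, 10 were higher at an unadjusted p under 0.05 and 0 lower, DESeq2 called 6, and the median was 0.86. Cacna1s, the voltage sensor of excitation-contraction coupling, was at 51.1 and 23.4 CPM in WT against 115 and 98.4 CPM in KO, and the calcium release channel Ryr1 was at 103 and 43.8 CPM in WT against 238 and 149 CPM in KO. The calcium pump Atp2a1 was at 614 and 208 CPM in WT against 1772 and 1153 CPM in KO, and slow myosin Myh7 was at 138 and 52.8 CPM in WT against 348 and 263 CPM in KO. WT 2 was lowest in each of these genes, and WT 1 lay nearer to KO. Without WT 1 the list median was 1.62 and without WT 2 it was 0.44, with 20 and 4 genes at an unadjusted p under 0.05, and without KO 1 there were 6. Without WT 1 the values of Cacna1s, Atp2a1 and Myh7 were 2.19, 2.81 and 2.53. Myogenic regulators had 3 of 10 higher and 0 lower, with 6 higher without WT 1 and 2 without WT 2, where the median of 0.59 was 0.30, among them the muscle cadherin Cdh15 at 16.9 and 10.7 CPM in WT against 36.8 and 26.0 CPM in KO, Mymk, which fuses myoblasts, at 38.2 and 20.1 CPM in WT against 52.1 and 47.6 CPM in KO, and Mef2d, a factor of late differentiation, at 30.3 and 19.0 CPM in WT against 67.6 and 41.2 CPM in KO.

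Neuromuscular junction genes were all positive, 12 of 12, with 8 higher at an unadjusted p under 0.05 and 4 called by DESeq2. The synapse forms when agrin from the nerve activates Musk through Lrp4, Dok7 sustains its activity and Rapsn anchors acetylcholine receptors. Dok7 was at 3.80 and 3.48 CPM in WT against 11.2 and 6.20 CPM in KO, Rapsn was at 8.88 and 5.63 CPM in WT against 16.6 and 13.1 CPM in KO, and the receptor subunit Chrna1 was at 22.3 and 14.9 CPM in WT against 40.3 and 37.4 CPM in KO. The fetal subunit Chrng was at 21.2 and 9.25 CPM in WT against 30.5 and 25.7 CPM in KO, a log2 fold change of 0.89 (SE 0.36). WT 2 was below WT 1 for these 4 genes and Musk, and both KO libraries lay above both WT libraries. In the whole list the groups separated in that way for 10 of 12 genes, and for 17 of the 30 contraction genes, against 19.7% of all tested genes. The list median of 0.77 was 1.27 without WT 1 and 0.46 without WT 2, where 4 genes reached an unadjusted p under 0.05. For Musk the log2 fold change stayed between 1.87 without WT 2 and 2.32 without WT 1.

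The lists of nervous tissue genes differed in direction. The neuron list had 5 of 19 lower at an unadjusted p under 0.05 and 1 higher, with a median of -0.28, and the astrocyte and radial glia list had 4 of 10 lower and 1 higher, with a median of -0.61. Elavl4, an RNA-binding protein of neurons, was at 81.7 and 126 CPM in WT against 44.7 and 52.7 CPM in KO, and Fabp7, the fatty acid binding protein of radial glia, was at 1255 and 2459 CPM in WT against 233 and 591 CPM in KO. Hes5, a Notch target of neural progenitors, was at 4.54 and 9.48 CPM in WT against 3.06 and 1.65 CPM in KO. The vesicle protein Snap25 was at 194 and 279 CPM in WT against 141 and 149 CPM in KO, and the growth cone protein Gap43 was at 338 and 348 CPM in WT against 238 and 188 CPM in KO. The progenitor factor Sox2 had a log2 fold change of -0.64 (SE 0.27), while Nes, an intermediate filament of progenitors and of young muscle, had 0.72 (SE 0.30). DESeq2 called Elavl4, Fabp7 and Hes5 as lower, with adjusted p of 0.0313, 0.00635 and 0.0404. WT 2 was highest for all 3 of them, and without it Hes5 had -0.93 and the astrocyte list had a median of -0.19, with 1 gene lower at an unadjusted p under 0.05, and 1 neuron gene. Without KO 2 both lists had 2 genes lower, and Fabp7 had -2.99 against -2.17.

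Sensory neuron and Schwann cell genes lay on the higher side. Sensory neurons of the dorsal root ganglia had 5 of 12 genes higher and 0 lower at an unadjusted p under 0.05, with a median of 0.88. The pain-fibre sodium channel Scn10a was at 29.7 and 15.3 CPM in WT against 80.7 and 39.6 CPM in KO, and the capsaicin receptor Trpv1 was at 1.08 and 0.484 CPM in WT against 3.85 and 1.91 CPM in KO. Their values of 1.42 and 1.88 were 0.82 and 1.29 without KO 1, where 1 gene of the list reached an unadjusted p under 0.05, as without WT 2, while 8 did without KO 2. Avil, an actin regulator of sensory neurons, was at 32.1 and 17.3 CPM in WT against 81.4 and 40.3 CPM in KO, and the ATP receptor P2rx3 was at 31.3 and 20.5 CPM in WT against 63.1 and 44.7 CPM in KO. Runx1, a factor of pain neurons and of blood stem cells, was at 13.7 and 13.1 CPM in WT against 26.7 and 23.1 CPM in KO. Of 13 Schwann cell and oligodendrocyte genes 3 were higher and 1 lower, and without KO 2 there were 7 higher. The higher ones included Prx, a protein of the myelin that Schwann cells make, at 14.2 and 11.8 CPM in WT against 39.6 and 28.1 CPM in KO, a log2 fold change of 1.38 (SE 0.24). The lower one was Olig1, a factor of the central oligodendrocyte lineage, at 32.2 and 50.1 CPM in WT against 25.8 and 18.8 CPM in KO. Motor neuron genes, 7 in all, had a median of -0.29, with 0 at an unadjusted p under 0.05.

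Small lists of blood and vessel genes can be read against 7.53% of all tested genes that were higher at an unadjusted p under 0.05. The neutrophil granule genes Ltf (lactoferrin), at 6.14 and 4.43 CPM in WT against 22.1 and 13.3 CPM in KO, and Ngp (log2 fold change 1.21, SE 0.32) were both called by DESeq2 as higher. They were the only 2 of 13 at an unadjusted p under 0.05, against 4 without KO 1. Macrophage genes had 2 of 12 higher, Csf1r (log2 fold change 0.78, SE 0.27) and C1qb (log2 fold change 0.63, SE 0.24), and a median of 0.08. Erythroid genes had 1 of 11 lower and a median of -0.31, which was 0.13 without WT 1. All 12 endothelial genes were positive, with 3 higher at an unadjusted p under 0.05, DESeq2 calls for 0 and a median of 0.57. The vascular cadherin Cdh5 was at 64.0 and 26.0 CPM in WT against 123 and 84.5 CPM in KO, and WT 2 was the lowest library. Without WT 2 the endothelial median was 0.29 with 0 genes at an unadjusted p under 0.05, and without WT 1 it was 0.93 with 5, the count also found without KO 2.

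Fat genes made up most of the largest negative differences. Of the 10 genes in that set, 8 belong to fat tissue, among them Ucp1, the uncoupling protein of brown fat, at 419.5 and 49.5 CPM in WT against 10.3 and 2.06 CPM in KO. Cidea, a lipid droplet protein of brown fat, was at 316 and 38.6 CPM in WT against 12.2 and 8.69 CPM in KO, and Cidec, its white fat relative, was at 64.7 and 7.57 CPM in WT against 3.68 and 0.613 CPM in KO. The complement factor Cfd (adipsin) was at 81.7 and 5.47 CPM in WT against 4.47 and 0.873 CPM in KO, and Mrap, the melanocortin 2 receptor partner, was at 35.3 and 12.6 CPM in WT against 3.03 and 1.32 CPM in KO. Among the male libraries WT 1 was far above the others for each, WT 2 came second, and the log2 fold changes from -5.24 to -3.45 carry SE above 1. Without WT 1 they were -3.00 for Ucp1, -1.88 for Cidea, -1.79 for Cidec, -1.01 for Cfd and -2.52 for Mrap. In the white and general adipocyte list 6 of 15 were lower at an unadjusted p under 0.05, 0 were higher, and the median was -1.68. Lgals12, a galectin of lipid droplets and the 1 member called by DESeq2, was at 11.3 and 3.71 CPM in WT against 1.25 and 0.464 CPM in KO, and Adipoq (adiponectin) was at 168 and 40.1 CPM in WT against 16.01 and 8.90 CPM in KO. Fabp4, the fatty acid carrier of fat cells, was at 4163 and 680.3 CPM in WT against 186 and 439 CPM in KO, and Pparg, the master factor of fat cell formation, was at 38.6 and 8.86 CPM in WT against 7.06 and 7.75 CPM in KO, where KO 1, KO 2 and WT 2 were alike. Without WT 1 their values of -2.95 and -1.68 were -1.12 and -0.26. Without WT 1 the list median was -0.51, with 1 gene lower and 1 higher, and without KO 2 there were 2 lower. The brown fat list had 3 of 11 lower and a median of -0.30, which was -0.03 without WT 1, with 0 lower.

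Lung and skin genes were also among the largest differences, at low levels. Sftpc, a surfactant protein of the lung, was at 23.6 and 1.66 CPM in WT against 0.392 and 0.836 CPM in KO, and Scgb3a2, a secretoglobin of the airway, was at 7.27 and 69.4 CPM in WT against 1.93 and 0.483 CPM in KO. The surfactant protein Sftpb was at 1.75 and 0.623 CPM in WT against 0.287 and 0.130 CPM in KO. Sftpc was highest in WT 1 and Scgb3a2 in WT 2. The lung list had 7 of 9 lower at an unadjusted p under 0.05 and a median of -2.67, and without WT 1 it had 2 lower and a median of -1.50. Without KO 1 it had 4 lower. Flg, filaggrin of the outer skin, had 284 and 15 counts in WT and 1 in each KO library, so WT 1 held most of them. Other skin genes differed less, such as Krt1 at 6.68 and 7.22 CPM in WT against 3.55 and 3.29 CPM in KO, and the basal factor Trp63 was on the higher side at 2.51 and 2.03 CPM in WT against 4.53 and 6.74 CPM in KO. The adrenal and kidney list had 0 of 7 at an unadjusted p under 0.05, and its median of -3.69 was 0.47 without WT 2, while without WT 1 there were 4 lower. The hepatocyte list had 0 of 12, and 12 lower without KO 1. The hepatocyte median of -0.33 was -2.96 without KO 1 and 0.59 without KO 2.

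Immediate early genes, which are transcribed within minutes of a stimulus by way of the factors CREB and SRF, were mostly higher in male KO. Of 19 tested genes 13 were higher at an unadjusted p under 0.05 and 0 lower, and DESeq2 called 7, all higher, with a median of 0.81. Values were positive for 16 of the 19 and negative for 3. The promoters of Fos and Fosb, the 2 members with the smallest p, are shown for 2 reasons. Most members lay on the higher side, and these genes are textbook targets of CREB. The element of CREB is TGACGTCA, with the core TGACG. The sequences are the 250 bases before the start position used for each gene (RefSeq GRCm38.p6). They are written 5′ to 3′ on the gene's strand, with TGACG or its reverse complement in capitals. Fos lies on the plus strand at chr12:85473640-85473889 and Fosb on the minus strand at chr7:19310046-19310295.
Fos: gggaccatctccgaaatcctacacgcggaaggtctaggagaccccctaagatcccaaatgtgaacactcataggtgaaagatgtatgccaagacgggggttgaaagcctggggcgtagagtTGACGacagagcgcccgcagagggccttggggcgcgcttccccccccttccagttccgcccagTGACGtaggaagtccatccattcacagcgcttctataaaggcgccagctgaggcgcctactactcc
Fosb: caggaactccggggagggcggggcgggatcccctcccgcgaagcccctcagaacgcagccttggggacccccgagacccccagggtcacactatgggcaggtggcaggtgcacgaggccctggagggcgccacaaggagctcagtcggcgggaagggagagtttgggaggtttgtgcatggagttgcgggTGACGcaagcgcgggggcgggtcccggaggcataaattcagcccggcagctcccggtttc
The core starts 129 and 66 bases before the start used for Fos and 60 bases before that used for Fosb. The gene span of Fosb reaches chr7:19310118, so its window overlaps the gene and its core lies inside that span. The core was searched on both strands in windows of 300 bases that also take in the 50 bases after each start. It occurred in 12 of 16 immediate early genes with a window (75%) and in 23.0% of 27025 genes. The whole element TGACGTCA, which contains the core on both strands, occurred in 2 of the 16 (12.5%), Btg2 and Dusp1, against 2.03%. The CArG box bound by SRF occurred in 1, Egr2, against 1.81%. A match describes the letters in the window only, and sites outside the windows were not searched, so a missing match does not show that a gene lacks the site.

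Fos was at 11.2 and 11.97 CPM in WT against 30.9 and 46.3 CPM in KO, a log2 fold change of 1.73 (SE 0.29) with adjusted p of 0.184 in edgeR and 5.76e-05 in DESeq2. Fosb was at 1.70 and 1.06 CPM in WT against 6.23 and 7.06 CPM in KO, a log2 fold change of 2.27 (SE 0.49). Their AP-1 partner Junb was at 7.47 and 6.53 CPM in WT against 17.5 and 12.6 CPM in KO, and Fosl2, a later-acting member of the family, was at 25.4 and 23.7 CPM in WT against 45.2 and 50.3 CPM in KO. The zinc finger factor Egr1 was at 22.6 and 15.8 CPM in WT against 49.2 and 36.7 CPM in KO, the orphan receptor Nr4a1 was at 17.4 and 14.9 CPM in WT against 30.2 and 32.2 CPM in KO, and the stress factor Atf3 was at 7.59 and 6.87 CPM in WT against 12.3 and 17.4 CPM in KO. For every one of these named genes both KO libraries lay above both WT libraries. Except for Atf3, KO 1 and KO 2 differed less from each other in CPM than from WT. In the whole list 15 of 19 genes lay wholly higher in KO, against 19.7% of all tested genes. The other way, 2 lay wholly lower, against 23.9%. The list median stayed between 0.59 without WT 2, where 8 genes were higher at an unadjusted p under 0.05, and 0.98 without WT 1. Of the heat shock list, another stress response, 1 of 11 was higher and 1 lower at an unadjusted p under 0.05, the lower one being Hspa5, the chaperone BiP, at 718 and 538 CPM in WT against 259 and 389 CPM in KO. The inflammation list had 4 of 11 higher, and 1 without WT 2, led by the feedback inhibitor Socs3 at 8.46 and 5.40 CPM in WT against 17.5 and 11.96 CPM in KO. The hypoxia and glycolysis list had 3 of 15 lower, Ankrd37 and Vegfa among them, and a median of -0.14. The sources used here do not give dissection and handling times, and their part in these values was not tested.

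**Figure D4:**
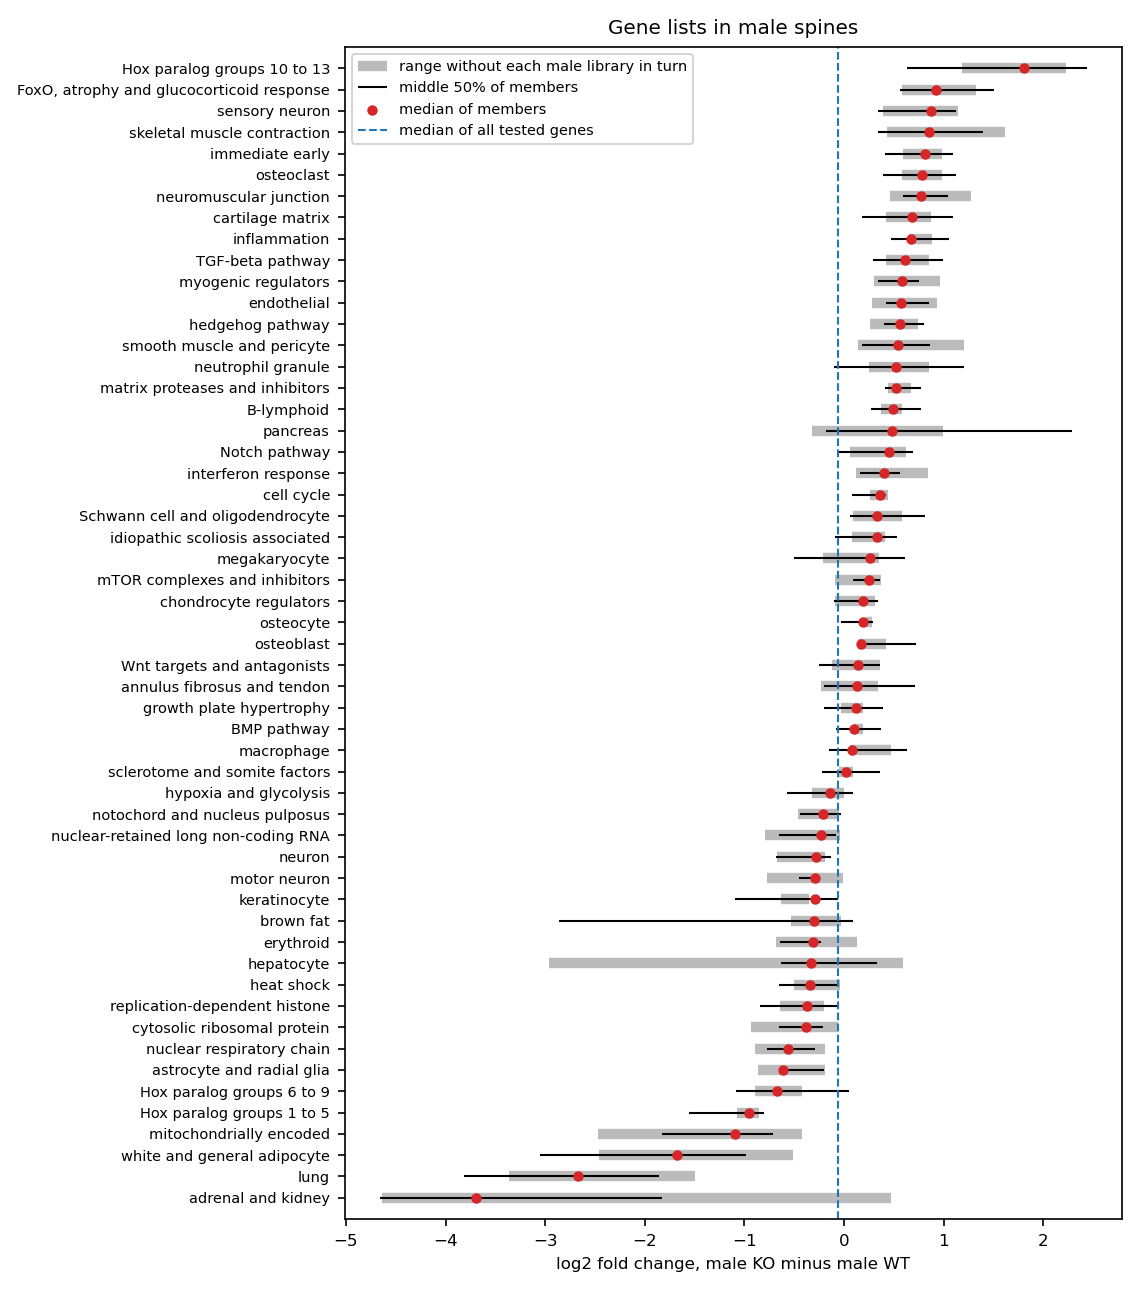
Median log2 fold change (male KO minus male WT, red point) of each gene list, with the middle 50% of its members (black line), the range of the median when each male library is left out (grey bar) and the median of all tested genes (dashed). Hox groups 10 to 13 are highest at 1.81 and Hox groups 1 to 5 are at -0.95 with a narrow grey bar, whereas the grey bars of fat, lung, adrenal and hepatocyte lists are wide.

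Genes linked to idiopathic scoliosis in human association and family studies had a median of 0.33 over 20 tested, with 5 higher at an unadjusted p under 0.05 and 0 lower. Chd7, a chromatin remodeller, was at 12.9 and 11.3 CPM in WT against 24.7 and 21.5 CPM in KO and was the 1 member called by DESeq2 (adjusted p = 0.0267). Adgrg6, an adhesion receptor needed for disc and Schwann cell maturation, was at 37.6 and 36.8 CPM in WT against 54.5 and 56.1 CPM in KO. Without KO 1 the list median was 0.08, and without WT 2 there were 2 genes higher.

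Transcripts of the respiratory chain and the ribosome had negative medians but few genes past the unadjusted threshold. The 13 mitochondrially encoded genes had a median of -1.09, 12 of 13 negative, and 2 lower at an unadjusted p under 0.05. Among them mt-Co3, a subunit of cytochrome oxidase, was at 75.3 and 81.3 CPM in WT against 4.93 and 16.6 CPM in KO, called by DESeq2. Without KO 1 the median was -0.43 and without KO 2 it was -2.47, with 10 lower. Nuclear respiratory chain genes had a median of -0.56 with 7 of 86 lower, and cytosolic ribosomal protein genes had -0.38 with 0 of 84 at an unadjusted p under 0.05. Without KO 2 these were -0.89 with 21 lower and -0.93 with 29 lower, and without KO 1 they were -0.32 and -0.06. The respiratory chain list had 1 lower without WT 1 and 2 without KO 1.

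Transcript length went with the male difference. Over 16408 genes with a known length, which are not independent of each other, the Spearman correlation of length with log2 fold change was 0.277. Among the 4102 genes with the shortest transcripts the median was -0.25, with 129 genes higher and 411 lower at an unadjusted p under 0.05. Among the 4102 with the longest transcripts the median was 0.16, with 653 higher and 140 lower. With the length trend subtracted, the median of ribosomal protein genes was -0.08, that of respiratory chain genes -0.25, that of Hox groups 1 to 5 -0.87, that of the FoxO list 0.94 and that of immediate early genes 0.83.

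**Figure D5:**
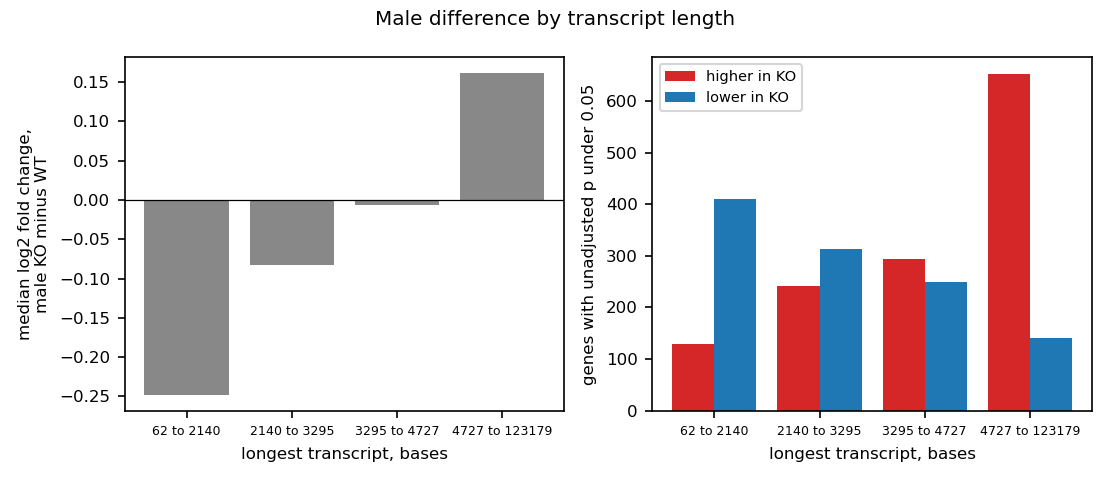
Genes in 4 equal bins of longest transcript length (bases), with the median log2 fold change in males (left) and the number of genes higher (red) and lower (blue) in KO at an unadjusted p under 0.05 (right). The median climbs from -0.25 in the shortest bin to 0.16 in the longest, and the lower calls fall from 411 to 140.

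Whether the male differences were particular to males was asked with the difference of the KO effects, female minus male. In edgeR 0 genes passed at an adjusted p under 0.05 (smallest 0.243), 3031 (16.7%) had an unadjusted p under 0.05, and DESeq2 called 361 (1.99%). With the mitochondrial share as a covariate, 2127 genes had an unadjusted p under 0.05. That share was 5.29% and 7.01% for the female WT pair, while the female KO pair had 13.2% and 4.51%. The female groups thus overlapped, whereas both male KO libraries lay below both male WT libraries. Y-linked genes were higher in female KO than in female WT, as given above (median log2 fold change 3.94). The part of the share and of this Y-linked difference in single differences between sexes was not tested. For Deptor the female levels were 10.3 and 12.3 CPM in female WT against 7.53 and 11.5 CPM in female KO, and the difference was -2.46 (SE 0.38), with adjusted p of 0.243 in edgeR and 9.68e-05 in DESeq2. For Ago2 the female effect was -0.40 (SE 0.25) and the difference -2.08 (SE 0.36), and for Arid5b these were -0.32 (SE 0.23) and -1.95 (SE 0.33). Ago2 was at 107.7 and 106.4 CPM in female WT against 72.5 and 89.97 CPM in female KO. Its male levels were 30.5 and 34.0 CPM in WT against 123 and 84.1 CPM in KO. Female WT thus lay within the range of male KO, and male WT was the lowest group. Male WT was also the lowest group for Deptor, Arid5b, Ppp1r12b and Syne3, whereas male KO was the lowest for Rhcg. Rhcg was lower in male KO but had 0.31 (SE 0.39) in females, a difference of 3.34 (SE 0.58). Elavl4 had opposite signs, -1.09 in males and 1.06 (SE 0.27) in females, a difference of 2.15 (SE 0.38). Hmox1, the haem-degrading stress enzyme, was at 21.2 and 14.9 CPM in WT against 75.4 and 44.1 CPM in KO, a log2 fold change of 1.73 (SE 0.31) in males against -0.64 (SE 0.30) in females. Ppp1r12b and Syne3 had differences of -1.90 (SE 0.34) and -2.28 (SE 0.41). Each of these 8 genes had an edgeR adjusted p of 0.243 and was called by DESeq2. Hoxb13 had the smallest p among the named genes for the difference (DESeq2 adjusted p = 1.93e-05), and it was at 0.337 and 0.831 CPM in female WT against 0.0357 and 0.0285 CPM in female KO, opposite to males. Its fitted difference is not given because both smaller groups hold only a few counts, and the same goes for Rnu11, a spliceosomal RNA that a selection for polyadenylated RNA measures poorly, at 0.838 and 0.369 CPM in WT against 0 and 0.0186 CPM in KO in males. Ucp1, in contrast, had the same direction in both sexes: it had -5.24 in males and -6.66 (SE 1.83) in females, a difference of -1.42 (SE 2.05). The female levels were 31.7 and 889 CPM in female WT against 1.45 and 7.62 CPM in female KO, so a single WT library stood apart in females as well.

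By list, 13 of the 19 immediate early genes had an unadjusted p under 0.05 for the difference between sexes, and their median was 0.81 in males and -0.13 in females. In the FoxO list 9 of 17 did, with medians of 0.92 and -0.22, and in the neuron list 11 of 19, with medians of -0.28 and 0.63. For Hox groups 1 to 5 it was 6 of 15, with medians of -0.95 and -0.33. Hoxa4 had log2 fold changes of -1.53 in males and -1.39 (SE 0.34) in females, and Hoxa5 had -1.59 and -0.82 (SE 0.30). By contrast Hoxb7 and Hoxc6, lower in males, had 0.55 (SE 0.21) and 0.32 (SE 0.24) in females. In the lung list 7 of 9 genes did, with medians of -2.67 and 0.81. Cartilage matrix genes had 2 of 20 and like medians, 0.68 and 0.71. For Pax1 the female effect was 0.14 (SE 0.31) and the difference -0.20 (SE 0.44), with an edgeR adjusted p of 0.829.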

How the data were processed

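Whole spines were profiled by mRNA sequencing, and the values are read counts per gene in the authors' deposited table, 1 column per library. Spines were ground, extracted with TRIzol and made into stranded polyadenylated libraries, per the labels' protocols. The submitters' processing notes name FastQC 1.0.0, MultiQC 1.0.0, HISAT2, featureCounts and mm10. The sources used here do not give the annotation, the aligner settings or the strand setting of the counting, so reads of overlapping or antisense genes cannot be told apart. Of 27179 counted Entrez identifiers, 25275 took a symbol from RefSeq GRCm38.p6, 18 from GENCODE M21 and 1886 had none.

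All 8 libraries entered 1 fit of 4 group means (R 4.3.3, edgeR 4.0.16, quasi-likelihood test, TMM scaling, filterByExpr with a minimum count of 10, 4 residual degrees of freedom), which left 18104 genes. Tests were two-sided and p-values were adjusted by Benjamini-Hochberg over all tested genes, with a threshold of 0.05. DESeq2 1.42.0, limma 3.58.1 (voom), another scaling, no filter on low counts, only the male libraries, a replicate block, the mitochondrial share as a covariate, mitochondrial genes left out of the library sizes, and each male library left out in turn were alternatives. Scripts were tested on simulated data. Some members are counted in their lists but not reported by name here.

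Members and gene lists were chosen with earlier results of these data known, and lists carry no test; 2 of 933 list entries were not counted. Named genes are Pax1, the 20 genes with the smallest p in each direction among those with a mean of at least 1 CPM and no overlap, the 10 largest differences each way (unadjusted p under 0.05, at least 5 CPM in the higher group), up to 4 members per list by p with members that show a role, and 10 genes for the difference between sexes. A few further Hox genes and list members were named after their values were seen, and the core motif TGACG was added after the tables had been read. Symbols, positions, transcript lengths and promoters are of GRCm38.p6, the same assembly as mm10.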

Additional observations from a re-analysis of the deposited data

How the results depend on the processing

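At an adjusted p under 0.05 the male comparison gave 487 genes with DESeq2 and 39 with no filter on low counts, against 0 in edgeR, voom, the other scaling, the fit of male libraries alone and the fits that treat mitochondrial genes differently. The difference between sexes gave 361 and 1 genes under the first 2 settings. Genes at an unadjusted p under 0.05 ran from 1233 without male WT 2 to 5176 without male KO 2, against 2684, and the Pax1 value ran from 0.02 to 0.60. With the replicate number as a block 0 genes passed after adjustment, 2937 had an unadjusted p under 0.05 and Pax1 was at 0.31. Same-numbered male libraries deviated together with a correlation of 0.146 and female ones with -0.144. With 2 libraries a group this gives 1 value per sex, which cannot show whether the numbers mark littermates or another pairing. With the mitochondrial share as a covariate Sox9 was at -0.037 and T at 0.19, of opposite sign to the values given. Genes at an unadjusted p under 0.05 under that covariate went from 4 to 0 in the cartilage matrix list, from 5 to 1 in the sensory neuron list and from 3 to 0 in the endothelial list, and the hepatocyte list had 11 lower and a median of -3.54. Over the fits that leave out 1 library, Sox9 ran from -0.027 to 0.34, Shh from -0.46 to 0.11 and Hoxd10 from -0.24 to 0.37. Of 2519 values of named genes under the alternatives 2513 kept their sign. Many of these genes were chosen for small p or no overlap, which by itself makes a change of sign unlikely. Of 727 list medians 47 moved by more than a typical SE and 27, in 18 lists, had the opposite sign. They included the medians of Wnt, mTOR, annulus, chondrocyte regulators, sclerotome, growth plate hypertrophy, erythroid, hepatocyte and adrenal genes when 1 library was left out, and the medians of Wnt, mTOR, notochord, Schwann cell, ribosomal protein and mitochondrially encoded genes with the covariate. The median of all tested genes was -0.06, -0.03 under the other scaling and -0.01 with mitochondrial genes left out. A typical SE of 0.32 limits what 2 libraries a group can resolve.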
